A study of Mus musculus with 48 samples.

Results

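Oxidative phosphorylation genes were examined in cerebral cortex RNA as a nuclear and a mitochondrial set. Nuclear members were the gene symbols beginning with Nduf, Uqcr, Cox4 to Cox8 or Atp5, together with Sdha, Sdhb, Sdhc and Sdhd. Mitochondrial members were all genes listed on chromosome M. The C57BL/6J (B6) table listed 105 nuclear members among 27082 genes and no gene of chromosome M. The table of mice with human APOE listed 91 nuclear members and 13 genes of chromosome M among 18939 genes, and 90 nuclear members were in both tables. In all there were 119 members among 29069 genes.

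The respiratory chain passes electrons from NADH through complex I, and from succinate through complex II, to complex III and then to oxygen at complex IV, and complex V uses the resulting proton gradient to make ATP. Most subunits are encoded in the nucleus and imported. Mitochondrial DNA encodes only membrane subunits of complexes I, III, IV and V, and complex II is encoded wholly in the nucleus, so the other 4 complexes need RNA from both genomes. Neurons take most of their ATP from this pathway.

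The 48 mice formed 12 groups of 4 by sex, genotype and exposure. B6 mice carried the mouse Apoe gene, were labelled 4 months old and were exposed for 8 weeks. ApoE-TR mice carried human APOE3 (E3) or APOE4 (E4) in place of the mouse gene, were labelled 6 months old and were exposed for 15 weeks. Within each genotype and sex, 4 mice inhaled re-aerosolized nPM, a nano-sized fraction of urban particulate matter, and 4 inhaled filtered air (controls), for 5 hours on 3 days of each week. Each mouse gave 1 library, so p-values measure the spread between mice. Human APOE was carried by all ApoE-TR mice, controls included, and strain, age and length of exposure cannot be told apart. In bulk cortex RNA, fewer cells of a type and less RNA per cell cannot be told apart.

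Levels are the authors' CPM, reads scaled to the size of the library, rescaled between mice by TMM. Listed genes held an estimated 2050173 to 24403552 reads in B6 mice and 17829640 to 31260858 reads in ApoE-TR mice. All 104 members listed in ApoE-TR mice were above the value of a gene without reads in all 32 mice, whereas 13 of the 105 nuclear members were not in every B6 mouse. All 7 markers each of neurons, astrocytes, microglia and oligodendrocytes were above that value in every mouse. The level of a gene relative to the other mice fell with transcript length most in 3 E3 females. It fell less or barely in the other E3 females and in E4 female controls 7 and 21. The slope per doubling of length was -0.55 in control 61, -0.40 in control F6 and -0.22 in nPM mouse 55, against -0.15 to 0.14 in the other ApoE-TR mice. These 3 libraries lay under a limit of -0.2, applied after the data were seen. Mouse 55 was closer to control 63 (-0.15) than to F6, so the limit cuts a graded series. Counts and medians of comparisons that use E3 females are also given without the 3. Values of single genes and complexes hold all mice. Among B6 mice 1 male control, mouse 0, had a slope of -0.23.

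Per length, mitochondrial transcripts were the most abundant members. Averaged over the 32 ApoE-TR mice, mt-Co1, the catalytic core of complex IV (chrM:5328-6872), had 13676 CPM per kilobase. mt-Co3 followed with 8861 and mt-Atp6, the proton channel subunit of complex V, with 8353 CPM per kilobase. The lowest was mt-Nd4l, a small membrane subunit of complex I, with 1140. The highest nuclear member of each complex was far below these. It was Cox8a for complex IV with 443 CPM per kilobase, Atp5b, the catalytic beta subunit of complex V, with 347, Uqcrh, the hinge subunit of complex III, with 214, Ndufb9, an accessory subunit of complex I, with 143, and Sdha, the flavoprotein of complex II, with 81.4. Nuclear core subunits of complex I peaked at 53.4 CPM per kilobase for Ndufv1, and its assembly factors at 13.7 for Ndufaf2. In B6 mice, whose table was normalized separately, the highest were Ndufv2 with 26.8 CPM per kilobase among core subunits of complex I, Ndufs6b with 115 among accessory subunits, Ndufaf2 with 8.44, Sdha with 63.2, Uqcrc2 with 62.7, Cox4i1 with 126 and Atp5b with 167. Ndufs6b and other near-identical copies can share reads with their parent genes, so their levels are uncertain.

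Several subunits have tissue isoforms, and 1 form held most of the RNA in each family. In ApoE-TR mice Cox4i1, the common form of the regulatory subunit of complex IV, had 354 CPM per kilobase and Cox4i2, the form known from lung, 1.15. The liver-type Cox6a1 had 299 and the heart and muscle-type Cox6a2 had 4.43 CPM per kilobase. Cox6b1 stood at 219 and the testis form Cox6b2 at 1.86. Cox7a2 had 135, its relative Cox7a2l, which takes part in supercomplexes, 90.9, and the muscle form Cox7a1 1.23 CPM per kilobase. Cox8a at 443 faced Cox8b at 0.856, and Ndufa4 at 260 faced Ndufa4l2 at 0.862 CPM per kilobase. Of the genes for subunit c of complex V, which encode the same mature protein, Atp5g3 had 179, Atp5g2 34.4 and Atp5g1 14.8 CPM per kilobase.

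Nuclear members are known targets of the transcription factors NRF1, GABPA and YY1, so the 250 bases before each RefSeq start (GRCm38.p6) were searched on both strands for their core letters. The NRF1 core was present in 14 of the 74 nuclear members with a promoter sequence (18.9%) and in 6.76% of 15619 genes. The GABPA letters CCGGAAG were present in 14 of 74 (18.9%) and in 11.7% of all genes, and the YY1 letters AANATGGC, where N is any base, in 7 of 74 (9.5%) and in 4.62%. The stretches below are from members whose values are given further on, written 5′ to 3′ along the gene's strand, with the letters found in capitals, which spell out the NRF1 core in Atp5k and Sdhd and the reverse complement of the letters searched for NRF1 in Ndufa8 and for GABPA. All 4 lie on the minus strand. Atp5k encodes the e subunit of complex V, Ndufa8 an accessory subunit of complex I and Sdhd a membrane anchor of complex II.
Atp5k, NRF1, chr5:108434430-108434459: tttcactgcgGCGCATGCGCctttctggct
Ndufa8, NRF1, chr2:36049349-36049378: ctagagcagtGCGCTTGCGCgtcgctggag
Sdhd, NRF1, chr9:50603909-50603938: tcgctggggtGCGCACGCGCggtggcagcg
Sdhd, GABPA, chr9:50603877-50603906: ccgtctcctgcCTTCCGGttcacgcttcag
Sdhd held the letters of both factors within 1 promoter. These matches describe the sequence and do not show that a factor binds there.

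The first question was how inhaled nPM changed these RNAs, and E3 females had the largest median differences in both sets. Mitochondrial RNA made up 12.5%, 13.7%, 18.3% and 21.8% of listed CPM in the E3 female controls, and 7.67%, 7.79%, 10.3% and 14.9% in the nPM females. The groups overlapped through 1 nPM mouse, number 55, which lay above the 2 lowest controls. The 8 mice had the same order within each group for nuclear members, with 1.01%, 1.07%, 1.49% and 1.73% of listed CPM in controls and 0.821%, 0.831%, 0.964% and 1.19% in nPM mice. The ratio of mitochondrial to nuclear CPM was 12.2 to 12.9 in the controls. In the nPM mice it was 9.34, 9.38, 10.7 and 12.5, and the highest, in mouse 55, lay within the range of the controls. Elsewhere the mitochondrial share was narrow. It was 8.07% to 10.9% in E4 female controls, 8.39% to 9.49% in E4 nPM females and 7.0% to 8.3% over all 16 ApoE-TR males.

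**Figure D1:**
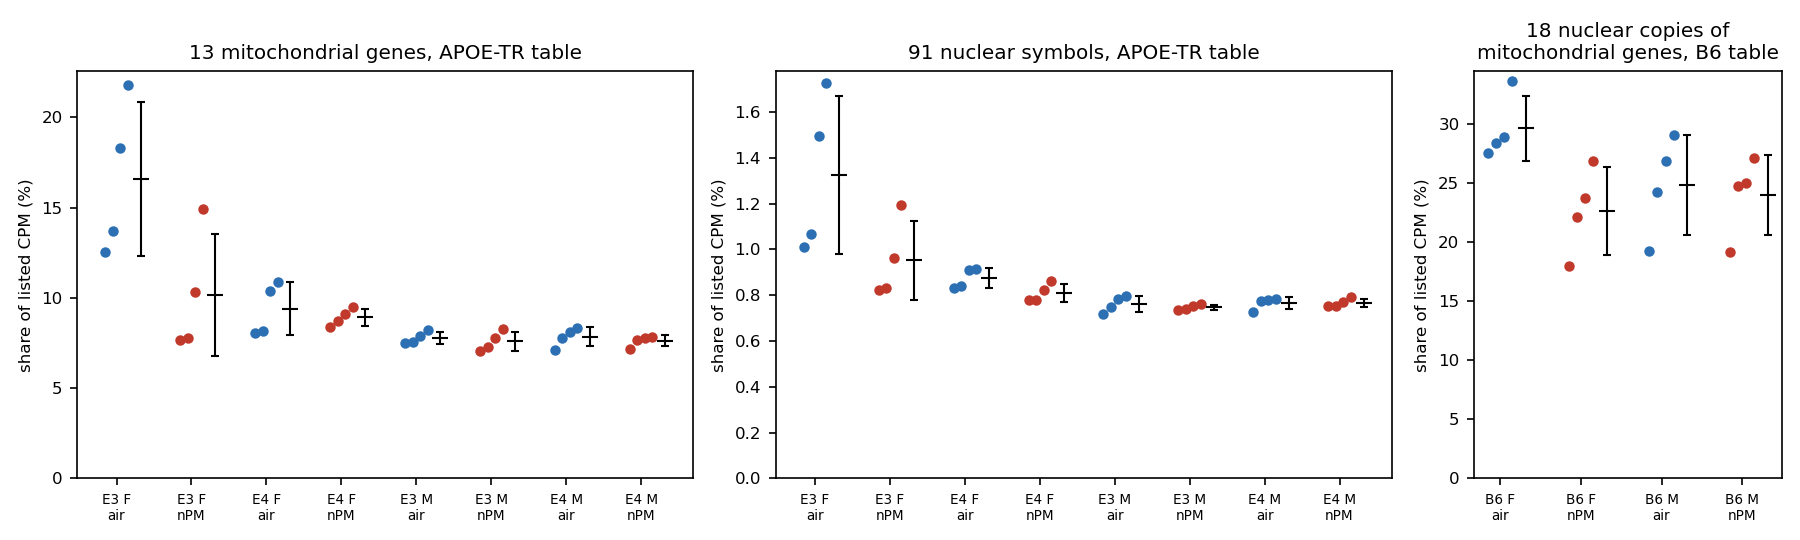
Share of listed CPM (percent, linear axes from 0) held in each mouse by the 13 mitochondrial genes and the 91 nuclear members in ApoE-TR mice, and by the 18 nuclear copies of mitochondrial genes, described further on, in B6 mice. Points are mice, 4 a group, and bars are means with SD; E3 female controls spread from 12.5% to 21.8% mitochondrial and from 1.01% to 1.73% nuclear, above all males in both sets.

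**Figure D2:**
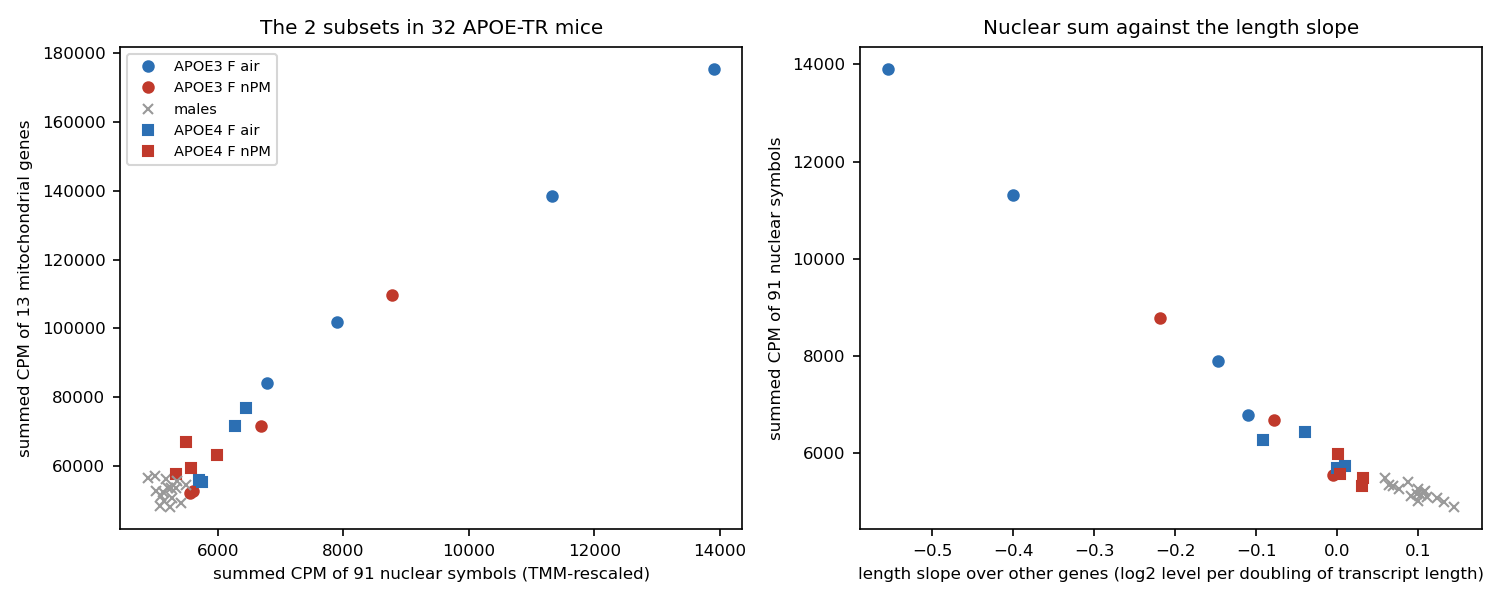
Left, summed rescaled CPM of the 13 mitochondrial genes against that of the 91 nuclear members in the 32 ApoE-TR mice; right, the nuclear sum against the slope of level on transcript length (linear axes, each point a mouse). E3 female controls 61 and F6 lie farthest out in both, with 13906 and 11323 nuclear CPM at slopes of -0.55 and -0.40, and the 16 males form a tight cluster.

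No member passed an unadjusted p under 0.005, the threshold for nPM, in E3 females by limma, by voom or by edgeR's quasi-likelihood test, where 0.623% of all 16380 genes tested did by limma. With the variance shared over all 8 ApoE-TR groups 71 nuclear and 13 mitochondrial members passed. The other groups varied less in their nuclear sums than E3 females, so this setting understates the spread of E3 females. The share of all genes that passed with it is not given here, so these counts cannot be set against it. At an unadjusted p under 0.05, 35 of 91 nuclear members were lower and none was higher by limma (44 by voom and 57 by edgeR). Of all genes 9.07% were lower at that threshold. All 13 mitochondrial genes had lower means, 11 of them at p under 0.05 by limma, 13 by voom and 10 by edgeR. The median log2 difference was -0.58 over nuclear members and -0.75 over mitochondrial genes, against -0.01 over all genes. The smallest adjusted p of any member was 0.232 (limma, Benjamini-Hochberg). Without mice 61, F6 and 55, which leaves 2 controls and 3 nPM mice, 8 nuclear and 5 mitochondrial members were lower at p under 0.005. The medians were then -0.31 and -0.69, and the share of all genes in this subset is not given here. Its length slopes still differed, with -0.11 and -0.15 in controls and -0.079, -0.0058 and -0.0003 in nPM mice. The 35 nuclear members at p under 0.05 became 4 without control 61, 3 without F6, 2 without nPM mouse 59 or 67 and 8 without 70, and 78 without control 52 or 71 without 55. For these fits with 1 mouse left out the share of all genes is not given here, so the counts cannot be set against it.

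Among mitochondrial genes mt-Nd2, a core subunit of complex I (chrM:3914-4951), had the smallest p. Its rescaled CPM was 5046, 5578, 6706 and 8332 in E3 female controls and 2847, 2957, 4076 and 5017 in nPM mice. The groups did not overlap, though nPM mouse 55 came close to the lowest control, and mt-Nd2 was the only mitochondrial gene without overlap. The log2 difference was -0.80 (SE 0.24). The limma adjusted p = 0.232 was the same for all 13 genes. mt-Nd3, a further complex I subunit (chrM:9459-9806), had the largest difference, -1.26 on the log2 scale (SE 0.46). Its control values were 695, 884, 1681 and 2697 CPM and its nPM values 387, 397, 562 and 974 CPM, so mouse 55 lay among the controls. For mt-Atp8, a small subunit of complex V (chrM:7766-7969), controls had 904, 1005, 1667 and 2691 CPM and nPM mice 481, 488, 689 and 1152 CPM, with a log2 difference of -1.11 (SE 0.40). Here again only mouse 55 reached the controls.

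Complexes IV, III and V followed. mt-Co1 had 26585, 32016, 45598 and 53749 CPM in controls and 16475, 16991, 22631 and 35171 CPM in nPM mice, a log2 difference of -0.81 (SE 0.34). mt-Co3, at -1.22 (SE 0.46), was the second most different mitochondrial gene, with 8960, 10834, 19847 and 31046 CPM in controls and 4785, 4797, 7116 and 12532 CPM in nPM mice. In both genes mouse 55 alone lay within the range of the controls. mt-Co2, which carries a copper centre, differed by -0.75 (SE 0.34) and did not pass an unadjusted p under 0.05. mt-Cytb, the sole mitochondrial subunit of complex III, differed by -0.59 (SE 0.26) and mt-Atp6 by -1.06 (SE 0.44), both at p under 0.05. The other complex I genes ranged from -0.70 for mt-Nd1 through -0.52 for mt-Nd4, -0.50 for mt-Nd6 and -0.48 for mt-Nd5 to -0.46 for mt-Nd4l, and of these mt-Nd4 alone did not pass p under 0.05. Control 61, the highest control for mt-Nd2, mt-Nd3 and mt-Atp8, was the lowest for mt-Nd4l, where controls had 369, 399, 441 and 458 CPM and nPM mice 246, 262, 338 and 383 CPM. The transcripts of mt-Nd4l and mt-Nd4, and those of mt-Atp8 and mt-Atp6, overlap on the chromosome (chrM:9877-10173 with chrM:10167-11544, and chrM:7766-7969 with chrM:7927-8607), so reads in the overlap cannot be assigned to 1 gene.

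**Figure D3:**
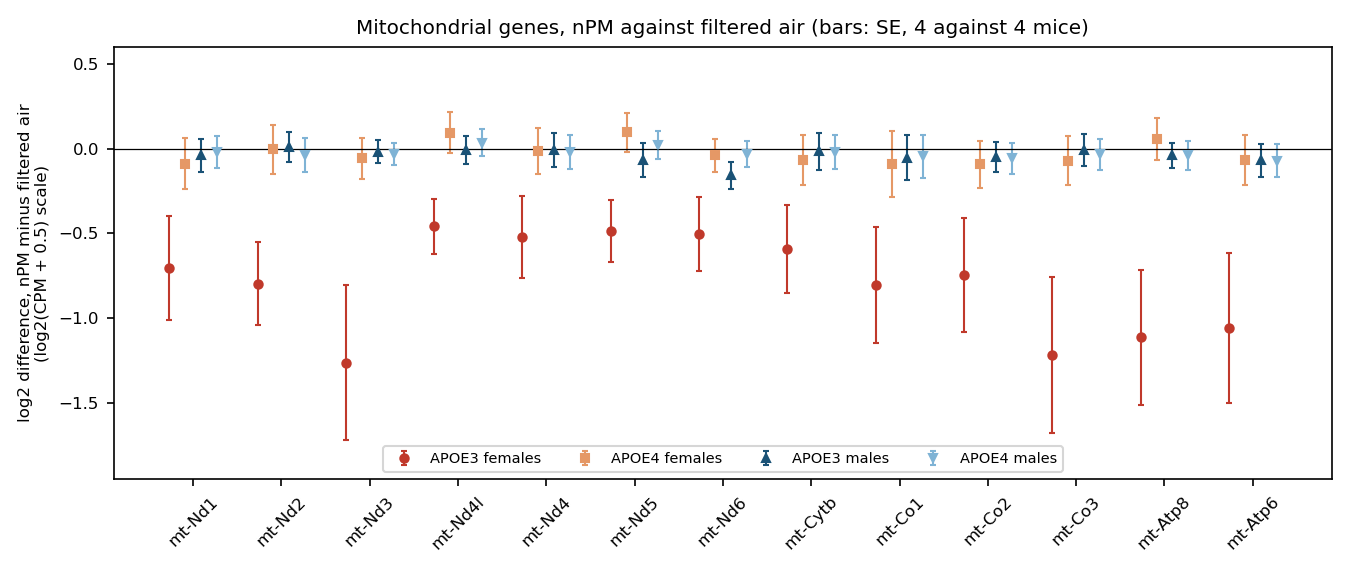
Log2 differences of the 13 mitochondrial genes for nPM against filtered air (linear axis, log2 of CPM + 0.5) in the 4 ApoE-TR groups of each allele and sex. Points are fitted differences and bars standard errors; in E3 females all 13 lie below 0, from -1.26 for mt-Nd3 to -0.46 for mt-Nd4l, and in the other groups they lie near 0.

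Nuclear members were ordered by complex. All 29 accessory subunits of complex I had lower means in E3 nPM females, with a median of -0.70 and 16 at p under 0.05. The 7 nuclear core subunits (median -0.33) and the 7 assembly factors (median -0.33) were also all lower, 2 of each at p under 0.05. Ndufab1, the mitochondrial acyl carrier protein (chr7:122088044-122101848), had the smallest nuclear p. Its CPM was 5.90, 7.07, 8.89 and 13.3 in controls and 3.65, 3.95, 4.80 and 6.10 in nPM mice, and only mouse 55 exceeded a control (log2 difference -0.82, SE 0.25). Ndufb2, an accessory membrane subunit, had the largest nuclear difference, -1.004 (SE 0.36), with 18.9, 24.8, 41.3 and 57.2 CPM in controls and 11.99, 13.02, 16.4 and 25.2 CPM in nPM mice. Ndufa12, another accessory subunit, had 37.8, 43.4, 58.3 and 68.2 CPM against 19.7, 30.6, 32.3 and 38.5 CPM, a log2 difference of -0.77 (SE 0.25). Its groups overlapped by nPM mouse 70 alone. Ndufa10 (chr1:92439708-92473758) was the only nuclear member whose groups did not overlap, against 2.78% of all genes not overlapping downwards. Its controls had 40.4, 40.4, 40.7 and 48.5 CPM and its nPM mice 30.6, 32.7, 34.5 and 38.3 CPM, a log2 difference of -0.32 (SE 0.11). All 4 genes had a limma adjusted p = 0.232.

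Complexes II to V followed. Of the 4 complex II genes 3 were lower at p under 0.05 (median -0.54). Sdhd had 85.8, 95.2, 133 and 159 CPM in controls and 66.99, 71.1, 79.5 and 97.9 CPM in nPM mice, a log2 difference of -0.55 (SE 0.21), with mouse 55 above the 2 lowest controls. The 8 complex III genes had a median of -0.64, 2 at p under 0.05. Uqcrq, a small subunit near the quinone site, had 91.7, 108, 192 and 234 CPM in controls and 65.5, 69.1, 91.9 and 127 CPM in nPM mice, and nPM mice 55 and 70 both exceeded the lowest control (log2 difference -0.76, SE 0.33). The 11 complex IV genes had the lowest nuclear median, -0.79, with 5 at p under 0.05. Cox7c, a small membrane subunit, had 45.4, 59.6, 97.2 and 139 CPM in controls and 29.3, 29.7, 41.7 and 64.1 CPM in nPM mice, a log2 difference of -0.98 (SE 0.38). Cox4i1 had 320, 369, 609 and 837 CPM against 227, 240, 283 and 441 CPM (log2 difference -0.79, SE 0.33), while its rare isoform Cox4i2 had 0.865 to 1.55 CPM against 0.599 to 1.16 CPM, a difference of -0.29 (limma adjusted p = 0.285). The 8 minor isoforms of complex IV had a median of -0.37 and none passed p under 0.05. The 15 complex V genes had a median of -0.58, 5 at p under 0.05. Atp5k had 23.3, 27.03, 40.7 and 61.8 CPM in controls and 15.3, 16.6, 19.9 and 31.2 CPM in nPM mice, a log2 difference of -0.82 (SE 0.33), again with mouse 55 inside the control range. The 2 members with higher means were Atp5sl (log2 difference 0.11) and Ndufa4l2 (0.11), both with overlapping groups.

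**Figure D4:**
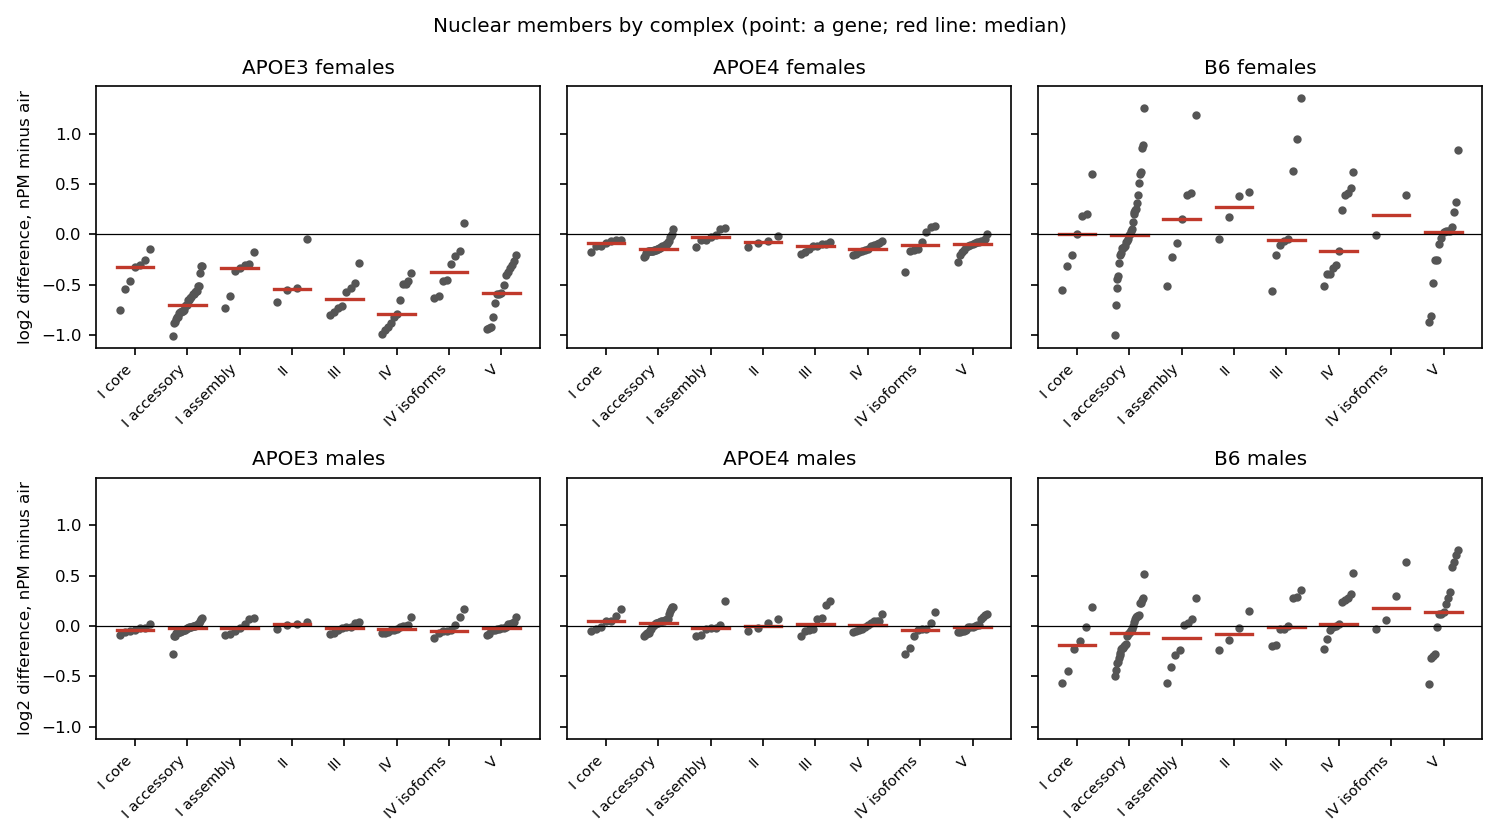
Log2 differences for nPM against filtered air of nuclear members by role, in females (upper row) and males (lower row) with APOE3, APOE4 and in B6 mice; points are genes and red lines medians. In E3 females the medians run from -0.33 for core subunits and assembly factors of complex I to -0.79 for complex IV, in both ApoE-TR male groups they lie near 0, and B6 genes scatter on both sides of 0.

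Further genes in or beside the chain, not among the members, were taken from lists chosen by role. The thresholds below are an unadjusted p under 0.05. In E3 females 9.07% of all genes were lower and 11.9% higher at that threshold. Of 13 genes for cytochrome c, Cyc1 and coenzyme Q synthesis 1 was lower, Cycs, the cytochrome c that links complexes III and IV (log2 difference -0.76, SE 0.31). Of 12 complex IV assembly genes 3 were lower and 1 was higher, Cox18 (0.40, SE 0.14), which helps insert a mitochondrial subunit. Among 4 further genes for complex V only Usmg5 passed (-1.02, SE 0.44), and among 13 genes of the citric acid cycle only Suclg2 (-0.54, SE 0.22). Of 14 genes of mitochondrial RNA expression 4 were lower, with the smallest p for Slirp, which stabilises mitochondrial mRNA (-0.83, SE 0.33). Of 12 import genes 1 was lower, Timm23, the channel of the inner membrane (-0.61, SE 0.24). Of 12 genes that govern mitochondrial biogenesis none was lower and 3 were higher, led by the coactivator Ppargc1b (1.10, SE 0.39). In lists of 12 to 14 genes 1 member past the threshold is close to the share of all genes. The medians were -0.26 for cytochrome c, Cyc1 and coenzyme Q synthesis, -0.30 for complex IV assembly, -0.42 for the further complex V genes, -0.14 for the citric acid cycle, -0.35 for mitochondrial RNA expression, -0.39 for import and 0.08 for biogenesis.

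Other measures moved with this difference in E3 females. Microglial markers were lower for 6 of 7 genes, 4 at p under 0.05, and their summed level was 327 to 419 CPM in controls and 239 to 323 CPM in nPM mice, with no overlap. None of these markers was at 0 in any mouse. Oligodendrocyte markers were lower for 6 of 7 genes, 4 at p under 0.05, with sums of 4564 to 6391 CPM in controls and 3669 to 4973 CPM in nPM mice. Astrocyte markers were lower for 5 of 7 genes, 3 at p under 0.05, with sums of 2919 to 4276 CPM in controls and 3291 to 4109 CPM in nPM mice. Neuronal markers were higher for 4 of 7 genes, 2 at p under 0.05, with sums of 4855 to 6726 CPM in controls and 5513 to 5890 CPM in nPM mice. Transcript length also moved with it. Among genes that were not members the median log2 difference was -0.35 for transcripts under 1 kilobase, -0.08 for 1 to 3 kilobases and 0.19 for 3 kilobases or more. Nuclear members under 1 kilobase had a median of -0.65 and longer ones -0.45, and members and other genes were not matched for length within these classes. With the length slope of each mouse as a covariate the medians were -0.02 over nuclear and -0.22 over mitochondrial members, and with the slope on GC content they were -0.06 and -0.25. The part of these measures in the result was not tested further.

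**Figure D5:**
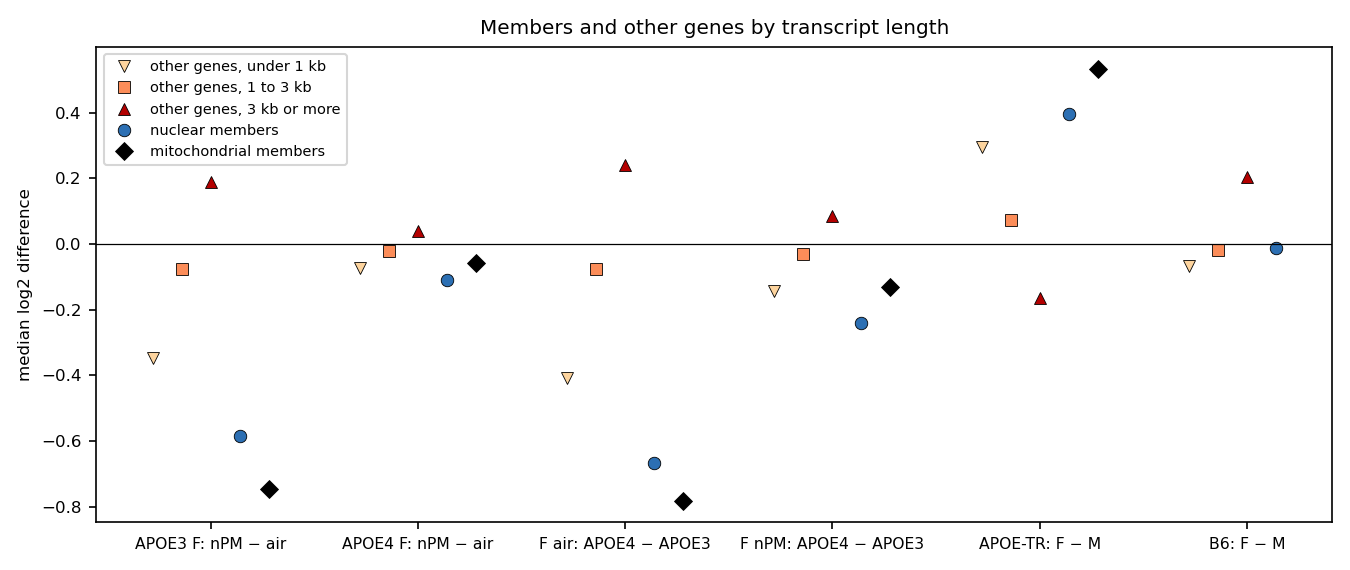
Median log2 differences of nuclear members, mitochondrial genes and other genes in 3 classes of transcript length, for 6 comparisons of exposure, allele and sex (each point a median over genes; B6 mice have no mitochondrial genes listed). Other genes run from -0.35 under 1 kilobase to 0.19 at 3 kilobases or more for nPM in E3 females, and from -0.07 to 0.04 in E4 females.

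In E4 females the differences for nPM were smaller. No member passed p under 0.005 by limma, voom or edgeR (0.242% of all genes did by limma), and 16 of 91 nuclear members were lower at p under 0.05 by limma, 10 by voom and 13 by edgeR, against 3.04% of all genes by limma. The nuclear median was -0.11. The mitochondrial median was -0.06, and none of the 13 genes passed p under 0.05 by any of the 3 tools. Atp5k had the smallest p, with 18.6, 18.8, 21.4 and 21.7 CPM in controls and 15.3, 15.9, 17.0 and 17.9 CPM in nPM mice. Its groups did not overlap, as for 4 nuclear members in all against 2.06% of all genes, and its log2 difference was -0.28 (SE 0.08, limma adjusted p = 0.759). Ndufb7, an accessory subunit of complex I, followed (-0.22, SE 0.07), then Cox4i1 (-0.21, SE 0.07). All 7 endothelial markers were lower in the same mice, 3 at p under 0.05, as were all 7 microglial and all 7 oligodendrocyte markers without any passing. The part of these cells was not tested.

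In males no member passed p under 0.005 by limma, voom or edgeR, in E3 (0.148% of all genes by limma) or in E4 mice (0.178%). The nuclear medians were -0.02 in E3 and 0.01 in E4 males, and the mitochondrial medians -0.04 and -0.03. In E3 males only Ndufa12 was lower at p under 0.05, at -0.28 (SE 0.11), where 1.04% of all genes were, and voom and edgeR each found 1. In E4 males 3 nuclear members were higher at p under 0.05, Ndufaf3, an assembly factor of complex I (0.24, SE 0.08), Ndufa7 (0.16, SE 0.06) and Uqcr11 (0.25, SE 0.10), where 2.98% of all genes were, and voom and edgeR also found 3. The groups did not overlap for Ndufaf3 and 1 other member, against 1.39% of all genes.

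The difference between responses was tested in the 32 ApoE-TR mice, with 1 variance shared over the 8 groups. Nuclear sums spread more in E3 female controls (6788 to 13906 rescaled CPM) than in E4 female controls (5699 to 6446). The p-values below therefore do not measure the spread within each group compared. Fitted on the E3 females alone, no member passed p under 0.005. The nPM difference of E4 females lay above that of E3 females for 89 of 91 nuclear and all 13 mitochondrial members, by medians of 0.46 and 0.65. With 1 E3 female control left out at a time the nuclear median ranged from 0.28 to 0.64 and the mitochondrial one from 0.60 to 0.85. At p under 0.005, 4 nuclear and 6 mitochondrial members passed, where 1.41% of all genes did in that direction, and the smallest adjusted p of a member was 0.124 (limma, Benjamini-Hochberg). The nuclear ones were Ndufab1 (0.87, SE 0.23), Ndufb2 (1.01), Ndufaf5, an assembly factor of complex I (0.61), and Ndufa10 (0.29). The mitochondrial ones were mt-Nd2, mt-Nd3, mt-Nd4l, mt-Nd5, mt-Co3 and mt-Atp8, with differences from 0.55 to 1.20. Within E3 mice the female response lay below the male response, and 8 nuclear and 4 mitochondrial members passed, where 1.77% of all genes did in that direction, with a smallest adjusted p of 0.0915. The nuclear ones were Ndufab1 (-0.82, SE 0.23), Ndufb2, Ndufa1 and Ndufa8 of complex I, Sdhc and Sdhd of complex II, Cox7c (-0.99) and Atp5k (-0.86). The mitochondrial ones were mt-Nd2 (-0.81), mt-Nd3, mt-Co3 and mt-Atp8. Both contrasts use the same E3 females, and for the subsets that follow the share of all genes is not given here. Without mice 61, F6 and 55 the counts were 5 nuclear and 8 mitochondrial between alleles and 17 and 8 between sexes. Without control 61 alone they were 1 and 2 between alleles and 1 and 1 between sexes, and without control F6 they were 2 and 3 and again 1 and 1. Without control 52 the nuclear counts were 54 between alleles and 67 between sexes, and without control 63 they were 12 and 29. With the length slope as a covariate 1 nuclear and 1 mitochondrial member passed between alleles and none between sexes, and with the slope on GC content none passed in either. The medians between alleles were then 0.03 and 0.27 with length and 0.08 and 0.29 with GC content. Between sexes they were -0.59 and -0.70 as fitted, -0.03 and -0.23 with length and -0.22 and -0.33 with GC content, and the nuclear one ranged from -0.77 to -0.40 with an E3 female control left out. Markers of other cells moved in the same contrasts. Between alleles all 7 endothelial markers had a lower response in E4 females, 2 of them at p under 0.005, Vwf (-1.18) and Ly6c1 (-0.72), with sums of 39.5 to 66.4 CPM in E3 controls, 46.1 to 69.5 in E3 nPM mice, 53.6 to 77.0 in E4 controls and 37.7 to 61.5 in E4 nPM mice. Of 7 microglial markers only P2ry12 is named, as it passed that threshold in both contrasts (0.75 between alleles and -0.79 between sexes). The list did not move as 1, since between alleles Csf1r (-0.51) and Cx3cr1 (-0.04) went the other way. Of 7 neuronal markers 4 were lower between alleles and 3 higher between sexes at p under 0.05. The part of length, GC content and these cells was not tested. Between alleles in males 0.0313% and between sexes in E4 mice 0.119% of all genes passed, and no member did by limma, voom or edgeR, nor at p under 0.05.

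Over all 48 mice, with sex and genotype in the model, none of the 79 nuclear members tested passed p under 0.005 by limma, where 1.37% of 11067 genes did, and voom called 1. At p under 0.05, 9 were lower and none higher by limma, where 3.31% of all genes were lower, and 18 were lower by voom. The median was -0.10. The smallest p values were those of Ndufb2 (-0.31, SE 0.12, limma adjusted p = 0.321), Ndufa12 (-0.26, SE 0.10) and the assembly factor Ndufaf4 (-0.20, SE 0.09). Without the 8 E3 females the median was -0.02 and none passed p under 0.05.

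The effect of the APOE allele was asked by comparing APOE4 with APOE3 in mice of the same sex and exposure. Female controls had the largest differences, and these share the 4 E3 controls with the nPM comparison above. At 5% FDR no member passed by limma, voom or edgeR, and 0.226% of all genes did by limma, with a smallest adjusted p of 0.0781 for a member. At an unadjusted p under 0.05, 75 of 91 nuclear and all 13 mitochondrial members were lower in E4 by limma, 77 and 13 by voom and 79 and 13 by edgeR. Of all genes 18.9% were lower at that threshold. Medians were -0.67 and -0.78. Groups did not overlap for 54 nuclear and 11 mitochondrial members, all lower in E4, and 12% of all genes were lower without overlap. Ndufab1, Ndufb6 and Ndufa1, all accessory subunits of complex I, had the smallest p. Ndufb6 had 39.9, 48.1, 78.1 and 109 CPM in E3 controls and 24.7, 26.9, 27.3 and 28.1 CPM in E4 controls, a log2 difference of -1.24 (SE 0.28, limma adjusted p = 0.0781). Ndufab1 had 5.90 to 13.3 CPM in E3 and 3.63 to 4.27 CPM in E4 controls (log2 difference -0.999, SE 0.22). The 4 E4 controls lay close together in both genes and the E3 controls were spread. Complex IV had the lowest nuclear median, -1.02. Without mice 61 and F6, which leaves 2 E3 controls, 6 nuclear and no mitochondrial members passed 5% FDR, and the medians were -0.29 and -0.54. The 2 E3 controls left had length slopes of -0.11 and -0.15, against -0.09 to 0.01 in E4 controls. Without control 52, 78 nuclear and 12 mitochondrial members passed. The share of all genes in these subsets is not given here. Other genes followed length here too, with medians of -0.41 under 1 kilobase and 0.24 at 3 kilobases or more. The medians of members with a length or GC covariate are not given for this comparison.

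Among nPM females no member passed 5% FDR by limma, voom or edgeR (0.139% of all genes by limma), and 7 nuclear members were lower in E4 at p under 0.05 by limma, 8 by voom and 18 by edgeR, where 4.08% of all genes were lower by limma. The medians were -0.24 and -0.13. With 1 mouse left out at a time the nuclear median ranged from -0.32 to -0.09 and the mitochondrial one from -0.25 to 0.10. The upper end of both came without E3 mouse 55, where the mitochondrial median changed sign and 3 nuclear members were lower at p under 0.05. With the length covariate, a term for each mouse's length slope, the medians were 0.06 and 0.31. Ndufa8 differed by -0.34 (SE 0.12), the assembly factor Ndufaf6 by -0.43 (SE 0.16) and Ndufv3, an accessory subunit of complex I, by -0.25 (SE 0.10), each with limma adjusted p = 0.532. In males no member passed 5% FDR by limma, voom or edgeR, among controls (0.433% of all genes by limma) or among nPM mice (0.475%), and the nuclear medians were 0.01 and 0.04. At p under 0.05, 1 nuclear member was lower among controls by limma, Ndufa4l2 (-0.23, SE 0.10), where 3.48% of all genes were. Voom found 2 and edgeR 1. Among nPM males 9 were higher by limma, where 5.64% of all genes were, against 7 by voom and 8 by edgeR. They were led by Sdhc, a membrane anchor of complex II (0.16, SE 0.04, limma adjusted p = 0.171), and Ndufa2 (0.18, SE 0.05, limma adjusted p = 0.240).

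Sex differences in ApoE-TR mice involved most members. At 5% FDR 71 of 91 nuclear members were higher in females and 3 lower, and 11 of 13 mitochondrial genes were higher. Of all genes 30.5% were higher and 32.2% lower. Medians were 0.39 for nuclear and 0.53 for mitochondrial members. Uqcrq had the smallest adjusted p. It had 62.0 to 76.8 CPM in E4 female controls and 60.6 to 72.9 CPM in E4 nPM females, and 25.8 to 43.9 CPM over the 16 males. No female was as low as any male, with a log2 difference of 1.29 (SE 0.11, limma adjusted p = 1.25e-10). Ndufs7, a core subunit of complex I with an iron-sulfur cluster, was higher by 0.78 and Cox8a by 0.72 on the log2 scale (both limma adjusted p = 2.17e-10). E4 female controls had 252 to 290 CPM of Cox8a and E3 male controls 162 to 196 CPM, groups that differ in allele as well as in sex. Ndufa10 (-0.19) and Ndufs1 (-0.14), a core subunit of complex I, were among the members that went the other way. Female E4 controls had 33.1 to 35.7 CPM of Ndufa10 and male E4 controls 39.2 to 44.1 CPM. mt-Nd3 had the largest mitochondrial difference, 0.94, while mt-Nd4l (-0.04) and mt-Nd5 (-0.02) did not pass.

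Sex moved with depth and length in these mice. All 16 males had more reads than any female. Medians of other genes were 0.30 under 1 kilobase and -0.16 at 3 kilobases or more, and nuclear members under 1 kilobase had a median of 0.57 and longer ones 0.23. In E4 mice alone 48 nuclear members were higher and 6 lower, 7 mitochondrial genes were higher, and the medians were 0.15 and 0.23. Without mice 61, F6 and 55, 67 nuclear were higher and 4 lower and 11 mitochondrial were higher. With the length slope as a covariate 17 nuclear members were higher and 27 lower, no mitochondrial gene passed, and mt-Atp6, mt-Atp8 and mt-Co3 took differences of -0.07, -0.14 and -0.06. For these subsets and this covariate the share of all genes is not given here, so the counts cannot be set against it. All 7 endothelial markers fell in females, with sums of 38 to 77 CPM in females and 88 to 142 CPM in males, and 5 of 7 oligodendrocyte, 5 of 7 astrocyte and 4 of 7 microglial markers rose. The part of depth and of these cells was not tested.

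In B6 mice sex differences went both ways. Of 92 nuclear members tested 7 were higher and 8 lower in females at 5% FDR, where 12.8% of all genes were higher and 9.23% lower, and the median was -0.01. Without male control 0 the counts were 11 and 7. They were 9 and 15 without rescaling, with median-of-ratios size factors or with voom, 3 and 6 without a filter on low values, and 16 and 0 with the length covariate, which moved the median of all genes from 0.06 to 0.18. Under these alternatives, and without control 0, the share of all genes is not given here, so the counts cannot be set against it. Markers of cell types moved in both directions too. At 5% FDR 3 of 7 neuronal markers were higher, with Snap25 at 1.09, and 3 lower, with Rbfox3 at -1.19, and 2 of 7 astrocyte markers were higher, with Slc1a2 at 1.17. Of 7 microglial markers P2ry12 (0.68) was higher and C1qa (-0.93) and Tmem119 (-0.96) were lower. Summed neuronal markers were 4798 to 8052 CPM in females and 2521 to 5695 CPM in males, and astrocyte markers 2108 to 3990 and 1219 to 2628 CPM. The part of these cells was not tested. Uqcrq had the smallest adjusted p, with a log2 difference of -1.51 (SE 0.34, limma adjusted p = 0.00296). Its female values were 0.958, 1.16, 2.74 and 5.596 CPM in controls and 3.87, 4.49, 8.89 and 9.46 CPM in nPM mice, and male values were 5.88, 9.52, 10.2 and 20.1 CPM in controls and 8.26, 9.44, 10.3 and 31.8 CPM in nPM mice. All female controls lay below all males. Cox7c (-1.20, limma adjusted p = 0.00309) had 0.562 to 2.83 CPM in females and 1.75 to 5.10 CPM in males, and Uqcr11 (-0.87, limma adjusted p = 0.0121) 0.330 to 0.966 and 0.927 to 4.04 CPM. These 3 genes were higher in females among ApoE-TR mice, and the difference between the tables was not tested. Cox7a2 was higher in B6 females, with 22.8 to 57.4 CPM against 8.57 to 31.5 CPM in males (0.97, limma adjusted p = 0.00456), as were Cox6c2 (1.08) and the complex III subunit Uqcrb (1.10). The slope of level on GC content moved with sex, from -0.51 to 0.09 in females and from 0.01 to 0.49 in males. With it as a covariate no member passed and Uqcrq took a difference of 0.62, so its direction reversed.

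For nPM in B6 females 1 of 95 nuclear members passed p under 0.005, where 1.13% of all genes did. It was Ndufaf8, a small assembly factor of complex I, with 0.176, 0.586, 0.680 and 0.768 CPM in controls and 0.942, 1.85, 1.90 and 3.09 CPM in nPM mice, without overlap (log2 difference 1.18, SE 0.36, limma adjusted p = 0.413). In B6 female controls a gene without reads had 0.0258 to 0.101 CPM before rescaling, so the lowest Ndufaf8 value lay near that level. Ndufaf8 no longer passed with a pseudocount of 0.1 or 2 CPM, and it passed without nPM mouse 53 but not without any of the other 7. At p under 0.05, 7 members were higher and 3 lower, where 6.63% and 2.28% of all genes were, and the median was -0.01. The groups did not overlap for 3 higher and 2 lower members, against 4.15% and 1.39% of all genes. Uqcrc1, a core subunit of complex III, had 49.4, 55.3, 65.6 and 69.5 CPM in controls and 72.8, 90.3, 92.4 and 118 CPM in nPM mice, without overlap (0.63, SE 0.20). Uqcrq differed by 1.35 (SE 0.47) with overlapping groups, and Atp5h, a stalk subunit of complex V, by -0.81 (SE 0.33). Atp5g2 had 1.53, 1.73, 1.85 and 3.16 CPM in controls and 0.576, 0.836, 0.942 and 1.19 CPM in nPM mice, a log2 difference of -0.87 (SE 0.34), without overlap. In B6 males no nuclear member passed (0.235% of all genes did) by limma or voom, 1 was higher at p under 0.05 by limma, where 2.08% of all genes were, and 2 by voom, and the median was -0.01. The first was Atp5g2, at 0.70 (SE 0.33), with 0.352, 0.606, 0.761 and 0.847 CPM in controls and 0.871, 1.17, 1.59 and 1.86 CPM in nPM mice. Its groups did not overlap, as for 0.789% of all genes upwards, and the difference between the sexes was not tested.

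Since the B6 table lists no chromosome M, nuclear pseudogenes that copy mitochondrial genes were looked up in it, a choice made after values were seen. The table lists 18 copies of 11 mitochondrial genes, and the ApoE-TR table lists none. The copies held a mean 25.3% of listed B6 CPM. Gm13340 (chr2:22588103-22589647) matched mt-Co1 at 97.6% over 1545 bases and had a mean of 40809 CPM, and Gm10925 on chromosome 1 matched mt-Atp6 at 100% over 678 bases. Stretches of 30 bases (mm10, 5′ to 3′ along the gene) show how close 2 of these pairs are. Capitals mark bases that differ, 4 in the first pair and none in the second.
mt-Co1, chrM:6018-6047: taccaGcaTctgttctgattctttggGcaC
Gm13340, chr2:22588928-22588957: taccaAcaCctgttctgattctttggAcaT
mt-Atp6, chrM:7927-7956: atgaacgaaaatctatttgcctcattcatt
Gm10925, chr1:24614622-24614651: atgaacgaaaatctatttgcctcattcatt
RNA from the nuclear copies and RNA from chromosome M cannot be told apart in these values. The copies' share was 27.5%, 28.3%, 28.9% and 33.6% in B6 female controls and 17.9%, 22.1%, 23.7% and 26.9% in nPM females, without overlap. It was 19.2% to 29.1% in male controls and 19.1% to 27.1% in male nPM mice. All 17 copies tested were lower in nPM females, with a median of -0.44. Several match the same mitochondrial gene, so the 17 are not separate observations. The slope of level on GC content also moved with exposure in B6 females. It was -0.51, -0.46, -0.44 and -0.28 in controls and -0.34, -0.13, -0.07 and 0.09 in nPM mice. The part of GC content in the copies and in the nuclear members of these females was not tested. Gm10222, identical to mt-Nd4l over 294 bases, differed by -1.17 (SE 0.27). Gm47099, a copy of 270 bases of mt-Nd5 at 87.0% identity, differed by -1.73 (SE 0.38). Its level was low, with 2.45 to 5.54 CPM in controls and 0.370 to 1.37 CPM in nPM mice. Both had limma adjusted p = 0.343, and no other copy passed p under 0.005, where 0.156% of all genes were lower. In males 8 of 16 were lower and the median was 0.00.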

How the data were processed

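RNA from 48 cortices was examined, 4 mice in each of 12 groups taken from the sample labels. The deposited values are CPM per gene and mouse, made by the authors in 1 table for B6 and 1 for ApoE-TR mice, and the submitters' processing notes name TopHat2 2.0.8b, Partek and mm10 (GRCm38). The scale of the CPM is not given in the sources used here. Symbols listed more than once were left out (4 listings a table). The animal number of 1 E3 female control column matches no sample, and it was used by its group only, as control F6.

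Values were rescaled by TMM (edgeR 4.0.16), taken as log2 with 0.5 CPM added, and tested over every gene that exceeded the zero-read value throughout the mice fitted, with limma 3.58.1 (lmFit, eBayes with a trend, R 4.3.3) and Benjamini-Hochberg adjustment. Each nPM and allele comparison was fitted on its own 8 mice, response and sex differences on all groups of a table. Fold changes are understated for low genes on this scale. Called members had an unadjusted p under 0.005 for nPM and response differences and 5% FDR for allele and sex. SD and SE are between mice. The steps were tested on simulated data. Alternatives were other pseudocounts, filters and scalings, voom, edgeR quasi-likelihood on reads recovered from the ApoE-TR CPM, shared variance, a length covariate and each mouse left out. A GC covariate and subsets of mice were added after the data were seen. Copies were found with BLAST+ 2.17.0.

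Genes named are all mitochondrial genes, the 3 nuclear members with the smallest p in each direction of a comparison, all called where 10 or fewer, the highest per length in each complex, isoform pairs, and the gene of smallest p in E3 females in each related list. Other named genes were chosen after their values were seen. The members and lists were chosen with earlier results of these data known. The values of 1 gene that this rule names are not reported here.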

Additional observations from a re-analysis of the deposited data

Results flagged for a closer look

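The response to nPM differed between alleles or sexes for members of both sets, by a test of the difference itself (limma). E4 females lay above E3 females in their log2 nPM difference by 1.17 for mt-Atp8, 1.15 for mt-Co3, 0.79 for mt-Nd2, 1.20 for mt-Nd3, 0.55 for mt-Nd4l, 0.58 for mt-Nd5, 0.29 for Ndufa10, 0.87 for Ndufab1, 0.61 for Ndufaf5 and 1.01 for Ndufb2. E3 females and E3 males differed by -1.07 for mt-Atp8, -1.21 for mt-Co3, -0.81 for mt-Nd2, -1.25 for mt-Nd3, -0.86 for Atp5k, -0.99 for Cox7c, -0.81 for Ndufa1, -0.59 for Ndufa8, -0.82 for Ndufab1, -0.93 for Ndufb2, -0.55 for Sdhc and -0.59 for Sdhd. All rest on the E3 females, and none passed after adjustment over all genes. Without control 61 alone 1 nuclear and 2 mitochondrial members passed between alleles, and 1 and 1 between sexes. The share of all genes without control 61 is not given here. With the length slope as a covariate 1 nuclear and 1 mitochondrial member passed p under 0.005 between alleles and none between sexes, and with the slope on GC content none passed in either.

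In 12 of 236 groups of 4 mice tested, 1 mouse lay far from the other three by Dixon's test, and chance gives about 1 such group in 20. Among the rescaled CPM of single genes, E3 female control 61 had 48.5 for Ndufa10 against 40.4 to 40.7 in the others. In males exposed to nPM, E4 mouse 93 had 4.13 for Ndufab1 (others 5.18 to 5.29), E4 mouse 65 had 170 for Cox8a (180 to 181), E4 mouse 23 had 18.1 for Atp5k (19.6 to 19.9) and E3 mouse 76 had 24.2 for Cox7c (21.1 to 21.3). In B6 mice, nPM female 53 had 8.39 for Ndufb2 (3.34 to 3.77), nPM female 52 had 2.83 for Cox7c (0.989 to 1.15), nPM male 10 had 31.8 for Uqcrq (8.26 to 10.3) and control male 0 had 4.04 for Uqcr11 (0.927 to 1.23). The nuclear share of E4 male control 21 was 0.727% (others 0.776% to 0.784%). The ratio of mitochondrial to nuclear CPM was 12.2 in E4 nPM female 8 (others 10.6 to 10.8) and 9.08 in E4 nPM male 33 (others 10.2 to 10.3).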

How the results depend on the processing

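Counts of called members follow for the settings that moved them, without the share of all genes at each setting. For nPM over 48 mice they were 2 without rescaling, 1 with median-of-ratios size factors, 1 with voom and 2 with the length covariate. In B6 females the count was 0 with a pseudocount of 0.1 or 2, without a filter, with a mean of at least 1 CPM and with the length covariate, and 0 to 5 with a mouse left out. In E3 females shared variance gave 71 nuclear and 13 mitochondrial members, and leaving out a mouse 0 to 1 and 0 to 2. Without the mice of low length slope they were 8 and 5. In E4 females TMM without members gave 1, the GC covariate 9 and leaving out a mouse 0 to 2, and in E4 males the length covariate gave 2. Between alleles in females the nuclear count was 7 by edgeR, 1 with length, 0 with GC and 1 to 54 with an E3 female control left out, and the mitochondrial count 3 without a filter, 1 with length, 0 with GC and 2 to 9. In males it was 1 with length. Between sexes in E3 the nuclear count was 13 without rescaling and by edgeR, 0 with length or GC, 17 without mice of low slope and 1 to 67 with an E3 female control left out, and the mitochondrial count 0, 0, 8 and 1 to 9. For E4 against E3 female controls, shared variance gave 81 and 13, leaving out a mouse 0 to 78 and 0 to 12, and leaving out mice of low slope 6 nuclear. In nPM females the GC covariate gave 1. For sex, ApoE-TR mice had 44 and 0 with length and 7 mitochondrial in E4 mice, and B6 mice 9 without a filter, 24 without rescaling, with median-of-ratios or with voom, and 0 with GC. The other 458 counts under alternatives stayed within 1.5 times. Of medians 496 moved by less than the spread and 30 by more, mostly with the length or GC covariate, and of single genes 2687 kept direction and side, 121 no longer passed, 93 newly passed and 24 reversed.

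Reversed log2 values were -0.0201 for Uqcr10 over 48 mice with voom, and -0.0326 for Cox6a2 and -0.136 for Uqcrq there with GC. In E3 males Atp5g1 ranged from -0.0035 to 0.167 with a mouse left out. For the allele difference Ndufa4l2 took 0.00983 with GC and -0.145 to 0.0581 with a mouse left out, and for the sex difference Atp5sl took -0.0273 with GC. For E4 against E3 female controls Ndufa4l2 took -0.0287 without rescaling and -0.0831 to 0.128 with a mouse left out. Cox6a2 took -0.0605 without rescaling, -0.0030 with median-of-ratios, -0.0021 by edgeR and -0.103 to 0.138 with a mouse left out. Cox6b2 took -0.0021 to 0.105 in nPM females with a mouse left out. With length, mt-Atp6 took -0.0694, mt-Atp8 -0.140 and mt-Co3 -0.0571 for sex, and with GC Uqcrq took 0.62 in B6. The cause was not tested. In B6 mice the length covariate moved the median of all genes for sex to 0.18, and members to 16 higher and 0 lower. The GC covariate moved the median of all genes to 0.25 for nPM in B6 females. Low-abundance isoforms rest on few reads, and the depth of B6 mice limits members near the value of a gene without reads. No paired analysis was possible because control and nPM mice share fewer than 2 animal numbers.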
